A study of Mus musculus with 25 samples.

Results

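The genes examined were 10 homeobox genes that pattern the head and brain: Otx1, Otx2, Emx1, Emx2, Gbx1, Gbx2, En1, En2, Vax1 and Vax2. They were chosen by name, with earlier results of these data known, as every row of the H3K27me3 peak lists whose gene symbol was one of the 10. All 10 had at least 1 peak in some list, out of 6091 genes with an H3K27me3 peak in any of the 12 lists, and they received 362 of the 34244 peaks.

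H3K27me3 and H3K9me3 were measured by chromatin immunoprecipitation sequencing (ChIP-seq) in regenerating myofibers of the mouse tibialis anterior (TA) muscle, with 3 libraries per mark in each of 4 genotypes. All mice, wild-type ones included, carried the Pax7-Cre(ERT2) driver and a mito-Dendra2 allele. They received tamoxifen at 75 mg/kg once a day for 5 days, and 2 days later the muscle was injured with 50 µL of 1.2% BaCl2. Dendra2+ myofibers were taken at 14 days post injury (dpi). The mfn2-/- myofibers lack mitofusin 2, a mitochondrial fusion protein, the vhl-/- myofibers lack the protein that targets HIF1α for degradation, and HIF1dPA myofibers carry a HIF1α that escapes this. Pax7-Cre acts in muscle stem cells, so the alleles were changed only in nuclei derived from them. Ages are not given in the labels. The series asked whether repressive histone marks differ in regenerating myofibers with raised HIF1α, and the comparison here asked this of genes whose best known roles are in the developing head. The study describes the 3 libraries of a group as biological replicates from 3 mice.

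Otx1 and Otx2 are needed for forebrain and midbrain, Gbx2 sets the anterior hindbrain against Otx2 at the midbrain-hindbrain boundary, and En1 and En2 act in the midbrain and cerebellum formed around it. Emx1 and Emx2 pattern the cerebral cortex, and Vax1 and Vax2 the ventral eye and optic nerve. Genes of this kind are classical targets of the Polycomb repressive complexes in tissues where they are silent: Polycomb repressive complex 2 places H3K27me3, often over wide stretches rich in CG dinucleotides. H3K9me3 is the mark of a separate silencing system, found largely at repeats and heterochromatin.

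The lists give no read totals, so sequencing depth is unknown, and peaks were called per library. The 9 wild-type, mfn2-/- and vhl-/- lists held 3358 to 4035 H3K27me3 peaks over 2.61 to 4.07 Mb. The HIF1dPA lists held 482 to 501 peaks over 0.331 to 0.354 Mb, so all 3 stand apart, and p-values that rest on them are given with and without them. None of the 12 myofiber marker genes and none of the 4 endothelial markers had a peak in any H3K27me3 list. Of the other marker classes, 9 lists (1 of them HIF1dPA) held a peak at 1 of 4 fibro-adipogenic genes, 6 lists (1 of them HIF1dPA) at 1 of 2 muscle stem cell genes, 1 list at 1 of 4 immune genes and 1 list at 1 of 3 Schwann cell genes. A peak list of a repressive mark does not show whether Mfn2, Vhl or HIF1α was altered, so the genotypes rest on the labels.

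RefSeq promoter sequences (GRCm38.p6, the same assembly as the mm10 build of the lists) were at hand for 6 of the 10 genes, in 9 windows of 300 bases that start 250 bases before a transcription start. Of these windows, 8 overlapped an H3K27me3 peak in at least 1 list, beside 4.07% of all 32851 windows. The 250 bases before the start of 4 genes are shown because they cover the range from the window most often under a peak to the one never under a peak. All are written 5′ to 3′, with each CG dinucleotide in capitals.
Otx2: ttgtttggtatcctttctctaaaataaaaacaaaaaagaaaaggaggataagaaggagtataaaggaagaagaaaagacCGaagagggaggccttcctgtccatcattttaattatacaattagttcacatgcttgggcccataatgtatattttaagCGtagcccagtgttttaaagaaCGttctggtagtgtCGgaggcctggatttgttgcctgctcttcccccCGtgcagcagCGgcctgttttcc
Emx1: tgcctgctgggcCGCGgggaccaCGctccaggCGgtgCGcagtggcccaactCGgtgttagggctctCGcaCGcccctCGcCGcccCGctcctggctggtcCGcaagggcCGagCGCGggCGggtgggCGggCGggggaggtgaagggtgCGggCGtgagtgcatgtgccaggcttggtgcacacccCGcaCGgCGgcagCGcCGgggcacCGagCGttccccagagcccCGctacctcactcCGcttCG
Emx2: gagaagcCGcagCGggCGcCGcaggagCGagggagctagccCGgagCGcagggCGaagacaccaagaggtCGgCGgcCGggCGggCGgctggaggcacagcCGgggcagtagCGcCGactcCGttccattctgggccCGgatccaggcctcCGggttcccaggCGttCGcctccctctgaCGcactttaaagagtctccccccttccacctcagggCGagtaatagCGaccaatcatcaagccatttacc
En1: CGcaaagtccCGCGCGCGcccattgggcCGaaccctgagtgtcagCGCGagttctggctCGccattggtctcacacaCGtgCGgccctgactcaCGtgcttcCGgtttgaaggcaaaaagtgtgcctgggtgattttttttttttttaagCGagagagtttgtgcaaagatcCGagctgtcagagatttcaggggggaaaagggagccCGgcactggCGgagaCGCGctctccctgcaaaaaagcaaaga

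The Otx2 sequence (chr14:48667645-48667894, minus strand) lies before the outermost of 4 annotated starts, and its window overlapped a peak in 9 of 12 lists, as did the window of the neighbouring start. Only 0.0365% of all windows did so in 9 or more lists. The Otx2 window held 6 CG dinucleotides in 300 bases, against a median of 7 over all windows, and 2 further Otx2 windows with 11 and 16 CG were under a peak in 6 lists each. For Emx1 (chr6:85187681-85187930, plus strand), the 300-base window had 37 CG, 30 of them in the 250 bases shown. It was under a peak in 3 lists, 1 from each genotype except HIF1dPA. For Emx2 (chr19:59458440-59458689, plus strand), the window had 26 CG, 24 of them in the bases shown, and no peak in any list. Peaks assigned to Emx2 were present in 10 lists, and the one closest to this start began 1067 bp inside the gene. For En1 (chr1:120602237-120602486, plus strand), the window had 23 CG, 19 of them in the bases shown, and a peak in 1 list, vhl-/- 2. Gbx2 and Vax1, with 27 and 17 CG, had a peak over the window in 3 lists each. Among these windows, the one with the fewest CG dinucleotides was thus under a peak in the most lists. The 4 richest in CG were under a peak in 0 to 3 lists. The 4 with the fewest CG were all of Otx2, so this contrast rests largely on 1 gene. The 2 Otx2 windows under a peak in 9 lists also overlapped each other. The letters TAATTA, a core read by many homeodomains and the same on both strands, were present in 3 of the 9 windows (Emx2 and 2 of Otx2) and in 5.29% of all windows. TAATCC or its reverse complement, the core of the Otx class, was in 1 (Otx2) and in 7.06% of all.

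Of the 10 genes, 9, 8 and 10 had a peak in wild-type libraries 1, 2 and 3. The numbers were 10, 9 and 9 in mfn2-/-, 10, 10 and 8 in vhl-/-, and 5, 4 and 1 in HIF1dPA myofibers. The mean was 9 ± 1 for wild-type lists (SD, n = 3), 9.33 ± 0.577 for mfn2-/-, 9.33 ± 1.15 for vhl-/- and 3.33 ± 2.08 for HIF1dPA. Of all genes with a peak in any list, 26.5 to 34.0% had one in a given wild-type, mfn2-/- or vhl-/- list and 7.04 to 7.13% in a given HIF1dPA list. The 3 genotypes with long lists did not differ beyond their spread, and all 3 HIF1dPA lists were lower than the other 9. Among the 482 strongest peaks of each list, which is the whole of the shortest one, wild-type lists held 7, 4 and 3 of the genes. The mfn2-/- lists held 8, 6 and 7, vhl-/- lists 4, 5 and 4 and HIF1dPA lists 5, 4 and 1. At equal list length HIF1dPA thus overlapped wild-type and vhl-/-. Of all genes with a peak in any list, those 482 peaks reached 6.81 to 7.06% in HIF1dPA and 5.19 to 5.70% in the other 9.

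**Figure D1:**
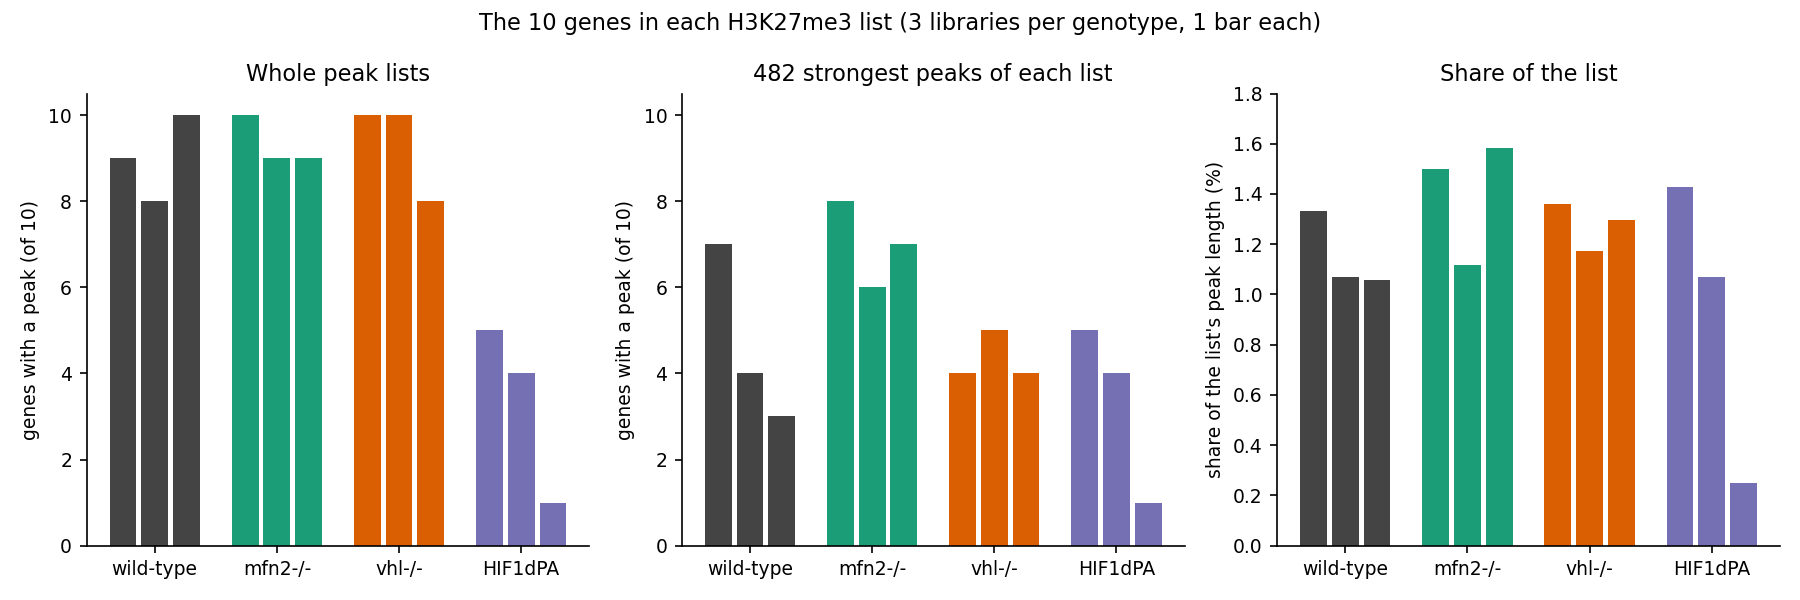
Each bar is 1 H3K27me3 library, in replicate order within its genotype. The left and middle panels give how many of the 10 genes had a peak, in whole lists and among the 482 strongest peaks of each list, and the right panel gives the percent of each list's peak length assigned to the 10 genes. HIF1dPA bars are the lowest in the left panel, at 1 to 5 genes, and within the range of wild-type bars in the middle panel apart from the library with 1 gene.

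The length under peaks was likewise lowest in HIF1dPA. The 10 genes together had 31887 to 46937 bp of peaks in wild-type libraries (37227 ± 8423, SD, n = 3), 29227 to 48471 bp in mfn2-/- (40877 ± 10243), 44830 to 51251 bp in vhl-/- (47945 ± 3215) and 865 to 4725 bp in HIF1dPA (3123 ± 2012). As a share of all base pairs covered in the same list, these lengths made up 1.15 ± 0.155% for wild-type, 1.40 ± 0.248% for mfn2-/-, 1.28 ± 0.0946% for vhl-/- and 0.915 ± 0.603% for HIF1dPA. The HIF1dPA values were 1.43, 1.07 and 0.25%, so 2 of these libraries fell in the wild-type range of 1.06 to 1.33% or above it, and library 3 stood below every other list.

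In the 9 long lists, these genes had a stronger best peak, more peaks and more bp under peaks per gene than a typical gene. The score of a peak (10 times the negative log10 of the caller's p-value) grows with depth, so it was used as a percentile within its own list, with 100 for the strongest. The median percentile of the 10 genes' strongest peaks was 78.8 to 92.9 in the 9 lists without HIF1dPA, against 52.6 to 56.5 over all genes in the same lists. The median bp under peaks per gene with a peak was 2711 to 6690 bp, against 779 to 1022.5 bp over all genes, and there were 2.90 to 5.00 peaks per gene, against 1.81 to 2.08. In the HIF1dPA lists the median percentile was 86.9, 56.9 and 55.3, against 51.3 to 52.1 over all genes, with 1 to 1.5 peaks per gene, against 1.12 to 1.16. Single peaks were not wider in every list: the median width at these genes was 702 to 1099.5 bp in the long lists, against 645 to 825 bp over all peaks, and it was the smaller one in wild-type 3 (702 against 739 bp) and HIF1dPA 2 (590 against 617 bp). These are descriptions with no test, since the genes were chosen with earlier results of these data known. A gene with more peaks tends to have a higher-ranking strongest peak, so the percentile also reflects the number of peaks.

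**Figure D2:**
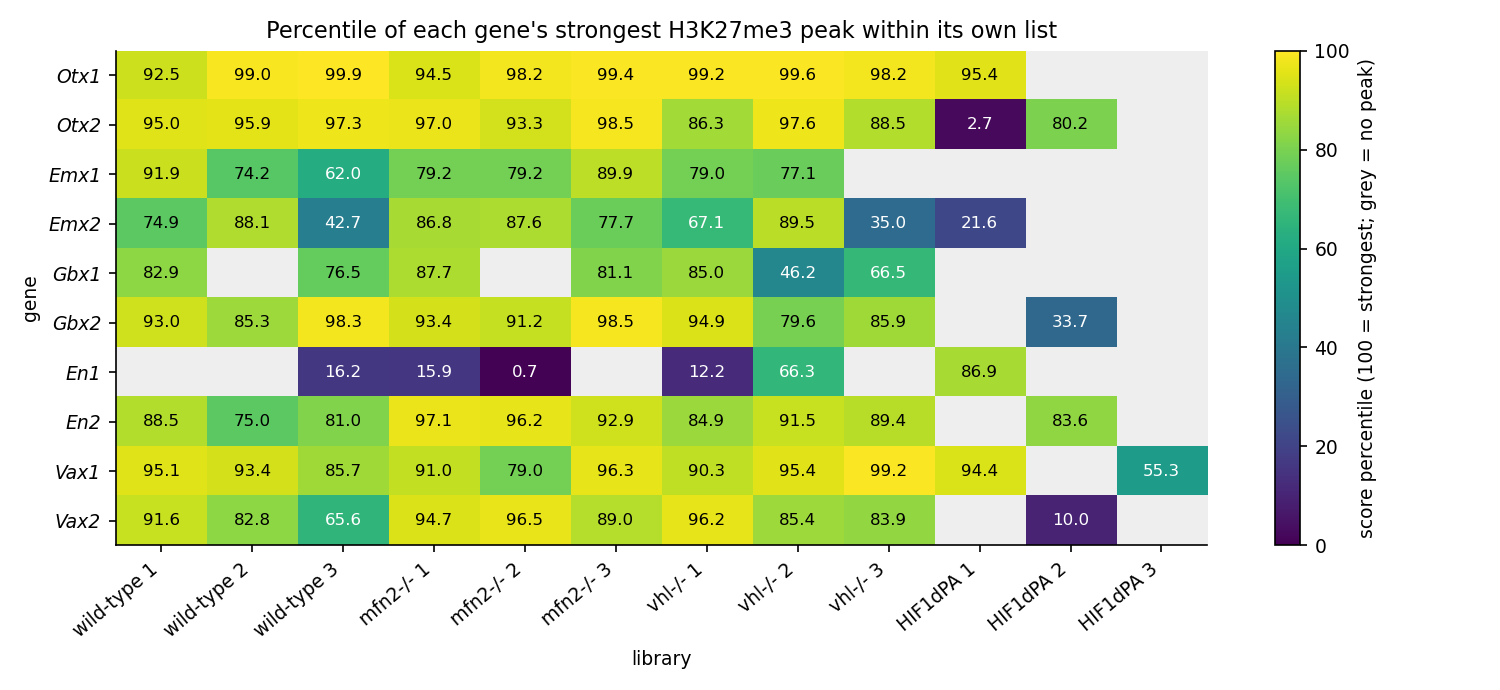
Rows are the 10 genes, columns the 12 H3K27me3 libraries, and each cell gives the percentile of the gene's strongest peak among all peaks of that list (100 is the strongest, grey is no peak). The Otx1 row is above 92 in every list where the gene had a peak, while En1 has values from 0.685 to 86.9 and 6 grey cells.

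Otx1 (ENSMUSG00000005917, chr11:21994764-22001651) had more bp under H3K27me3 peaks than any other of the 10 genes in 9 of the 12 lists. Its peaks covered 8199, 9348 and 9790 bp in wild-type libraries 1 to 3, 8092, 5354 and 9853 bp in mfn2-/-, 12356, 12249 and 11582 bp in vhl-/-, and 1751, 0 and 0 bp in HIF1dPA. All vhl-/- values lay above all wild-type values, all HIF1dPA values lay below, and mfn2-/- values spanned the wild-type range. An exact permutation test across the 4 genotypes (between-genotype sum of squares of covered bp, run on all 2393 genes with a peak in at least 3 lists) gave p = 0.000325 and a Benjamini-Hochberg adjusted p of 0.0444. Otx1 was the 1 gene of the 10 called at an adjusted p under 0.05, beside 1.84% of all genes tested. Without the HIF1dPA libraries the exact p was 0.0179 and the adjusted p 0.219, and on the share of each list's covered length the exact p was 0.705, with an adjusted p of 0.929. The strongest Otx1 peak, in wild-type 3, had score 544, ranked 4 of 3433 and was 7040 bp wide, the widest peak at any of the 10 genes.

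The Otx1 signal lay on both sides of the gene's lower-coordinate end, which is its 3′ end. A distal intergenic region at chr11:21984578-21993074 had a peak in 10 lists, 3 of each long-list genotype and 1 of HIF1dPA, and a second, chr11:21993092-22002059, over the gene itself, had one in all 9 long lists and in no HIF1dPA list. The authors classed 13 of its 64 peaks as promoter, 33 as distal intergenic and 11 as 3′ UTR, and 35.4% of its peak length fell within the gene. A stretch past the 5′ end, chr11:22002304-22003736, had a peak in 2 mfn2-/- and 2 vhl-/- lists and in no wild-type list.

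**Figure D3:**
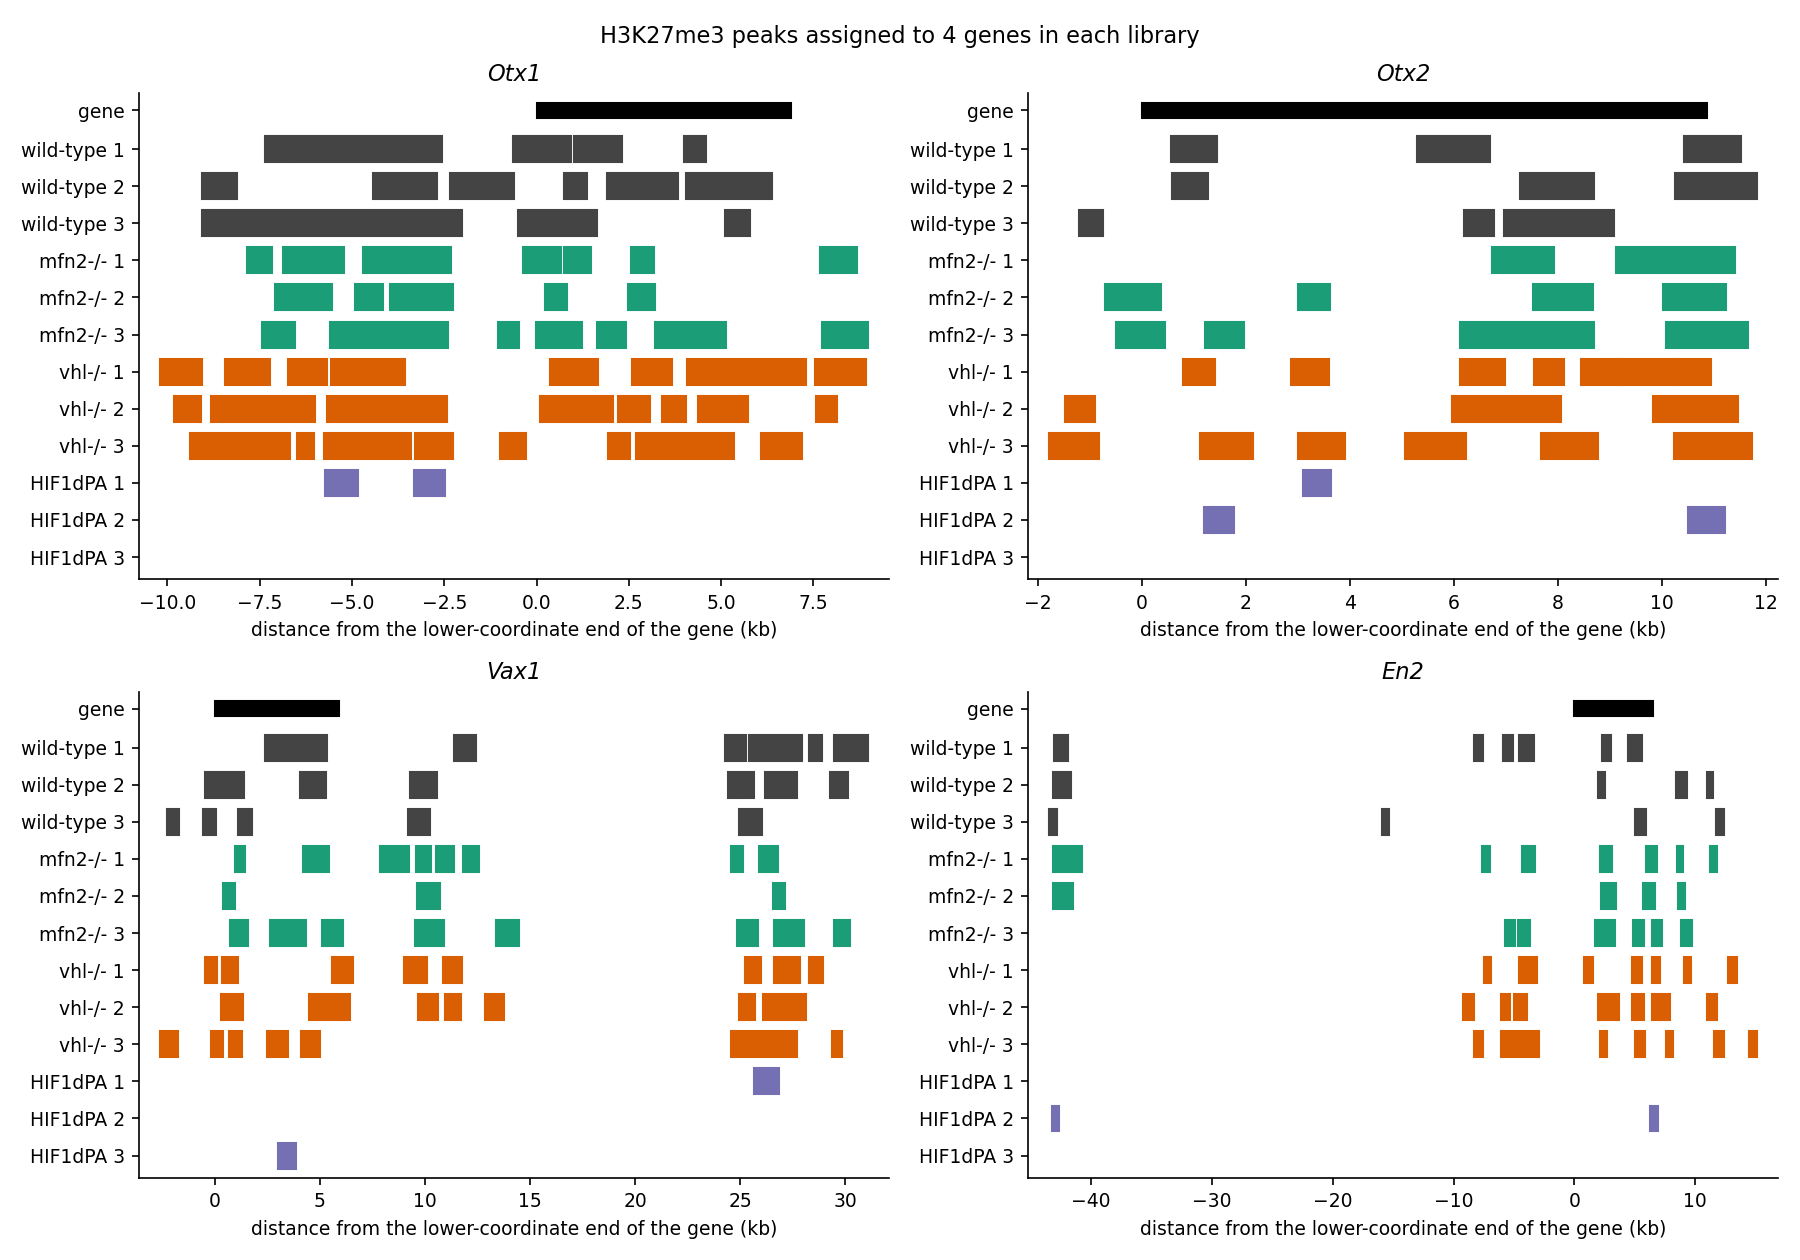
Coloured bars are the H3K27me3 peaks assigned to Otx1, Otx2, Vax1 and En2 in each of the 12 libraries, drawn to scale against the distance from the lower-coordinate end of the gene in kb, with the RefSeq gene span in black. The 9 wild-type, mfn2-/- and vhl-/- rows have 3 to 9 bars at each gene, in clusters that recur between libraries, and the HIF1dPA rows have 0 to 2. In the En2 panel the cluster at the far left is drawn in 6 rows and is missing from the 3 vhl-/- rows, mfn2-/- 3, HIF1dPA 1 and HIF1dPA 3. A peak of mfn2-/- 3 there was assigned to Insig1 and is not drawn.

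Otx2 (ENSMUSG00000021848, chr14:48656781-48667644) had shorter coverage centred on its starts. Its peaks covered 3377, 3671 and 3169 bp in wild-type, 3432, 4087 and 5879 bp in mfn2-/-, 5251, 4304 and 6642 bp in vhl-/- and 541, 1270 and 0 bp in HIF1dPA. As for Otx1, vhl-/- values were all above and HIF1dPA values all below wild-type. The exact p across genotypes was 0.00182, with an adjusted p of 0.0564, and it was 0.1 (adjusted 0.427) without HIF1dPA. Promoter classes held 30 of the 39 peaks, 76.9%, and the region chr14:48661831-48671708, which runs from the gene into the antisense transcript Otx2os1, had a peak in 10 lists.

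Gbx2 (ENSMUSG00000034486, chr1:89927962-89931176) was covered in all long lists, with 7110, 3110 and 4874 bp in wild-type, 4037, 4731 and 5160 bp in mfn2-/-, 7077, 4529 and 6738 bp in vhl-/- and 0, 780 and 0 bp in HIF1dPA. The 3 long-list genotypes overlapped. Its exact p was 0.00935 (adjusted 0.0734) with the HIF1dPA libraries and 0.514 (adjusted 0.760) without them. Only 12.4% of its peak length fell within the short gene, and the recurrent region chr1:89926335-89936000, in 10 lists, extended past its 5′ end. Gbx1 (ENSMUSG00000067724, chr5:24504426-24526848), its relative in hindbrain and spinal cord, had a peak in 7 lists, covering 901 to 3197 bp in each of them. No HIF1dPA list held a Gbx1 peak, and wild-type 2 and mfn2-/- 2 held none either, so its genotypes overlapped (exact p = 0.266, adjusted 0.416).

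Of the 2 Engrailed genes, En2 had a peak in 10 lists and En1 in 6. En2 (ENSMUSG00000039095, chr5:28165696-28172190) had 5969, 3522 and 2738 bp in wild-type, 7186, 4472 and 6142 bp in mfn2-/-, 5500, 7732 and 7053 bp in vhl-/- and 0, 1177 and 0 bp in HIF1dPA (exact p = 0.00240, adjusted 0.0579, and 0.129, adjusted 0.484, without HIF1dPA). En1 (ENSMUSG00000058665, chr1:120602487-120607991) had 0, 0 and 600 bp in wild-type, 652, 690 and 0 bp in mfn2-/-, 693, 680 and 0 bp in vhl-/- and 617, 0 and 0 bp in HIF1dPA. Each of the 6 lists with an En1 peak had a single one of at most 693 bp, and in 4 of the 5 long lists concerned its percentile was 0.685 to 16.2. Their scores were 50.1 to 81.5, where the lists stop at 50, and the wild-type 3 and HIF1dPA 1 peaks were the only pair that overlapped.

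A distal region with peaks up to 42.8 kb from En2, at chr5:28121670-28124951, was the only one of 34 regions of these genes present in at least 3 lists that separated wild-type from vhl-/- completely. All 3 wild-type and all 3 mfn2-/- lists had a peak there, no vhl-/- list did, and 1 HIF1dPA list did. Of the 2483 regions of any gene with a peak in at least 3 lists, 1.37% showed this pattern. The authors assigned its peaks to En2 in 6 lists and in mfn2-/- 3 to Insig1, the neighbouring gene. In vhl-/- 1 and 2 a peak assigned to Insig1 ended 46 and 263 bp short of the region. In vhl-/- 3 no peak lay within 5 kb of it. The region's lower edge was set by the Insig1 peak of mfn2-/- 3, and the peaks assigned to En2 began at chr5:28122244 or later. Wild-type 2 and mfn2-/- 1 had an Insig1 peak just before the region as well as a separate En2 peak in it. How far the separation depends on peak edges was not tested. The vhl-/- lists had peaks elsewhere at En2, and all 3 of them, with 3 mfn2-/- and 2 wild-type lists, had one over the 3′ UTR region chr5:28170115-28173856. A comparison of 3 with 3 libraries cannot give an exact p below 0.1.

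Emx2 (ENSMUSG00000043969, chr19:59458690-59465357) was the gene with higher coverage in all mfn2-/- libraries. It had 1662, 1518 and 647 bp in wild-type, 6423, 2322 and 4012 bp in mfn2-/-, 1978, 3490 and 636 bp in vhl-/- and 608, 0 and 0 bp in HIF1dPA. Every mfn2-/- value was above every wild-type value, while vhl-/- spanned the wild-type range. In mfn2-/- 1 the gene had 8 peaks, from the promoter classes to 4 distal intergenic ones, against 1 or 2 peaks in each wild-type list. The exact p across genotypes was 0.0215 (adjusted 0.0832), and 0.0714 (adjusted 0.344) without HIF1dPA. The most distant peak assigned to Emx2, 174 kb from the gene, was in wild-type 2 alone. Emx2os, its antisense neighbour, had 868 ± 1013 bp in wild-type and 2122 ± 1295 bp in mfn2-/- (SD, n = 3).

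Emx1 (ENSMUSG00000033726, chr6:85187931-85204463) was the gene that separated wild-type from HIF1dPA by presence. It had 3501, 1954 and 2300 bp in wild-type, 2051, 2638 and 2016 bp in mfn2-/-, 2829, 2635 and 0 bp in vhl-/- and none in any HIF1dPA list. Over all genes tested, 16.3% were likewise present in 3 wild-type lists and absent from those of HIF1dPA. On the share of each list the exact p for Emx1 was 0.0296 (adjusted 0.157), the only one of the 10 genes under 0.05 before adjustment on that scale, where 22.5% of all genes tested were. Of its 21 peaks, 18 were of promoter classes, and the region chr6:85189144-85191948 recurred in 7 lists.

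Vax1 (ENSMUSG00000006270, chr19:59164480-59170397) had the highest mean coverage after Otx1 in each of wild-type, mfn2-/- and vhl-/- myofibers, with 9703, 7729 and 4011 bp in wild-type, 6933, 2222 and 9285 bp in mfn2-/-, 7011, 8358 and 7597 bp in vhl-/- and 1208, 0 and 865 bp in HIF1dPA. Its long-list genotypes overlapped throughout (exact p = 0.0439, adjusted 0.137, with HIF1dPA and 0.836, adjusted 0.951, without). Its peaks formed a cluster over the gene and another in a distal intergenic region, chr19:59188739-59192596, which had a peak in 10 lists. Vax2 (ENSMUSG00000034777, chr6:83711239-83738313) was covered in 10 lists, by 2004 to 5359 bp in the long lists and by 552 bp in HIF1dPA 2. All of its peak length lay within the gene, with 20 of 27 peaks in promoter classes, and its exact p was 0.0156 (adjusted 0.0734) with HIF1dPA and 0.825 (adjusted 0.944) without.

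**Figure D4:**
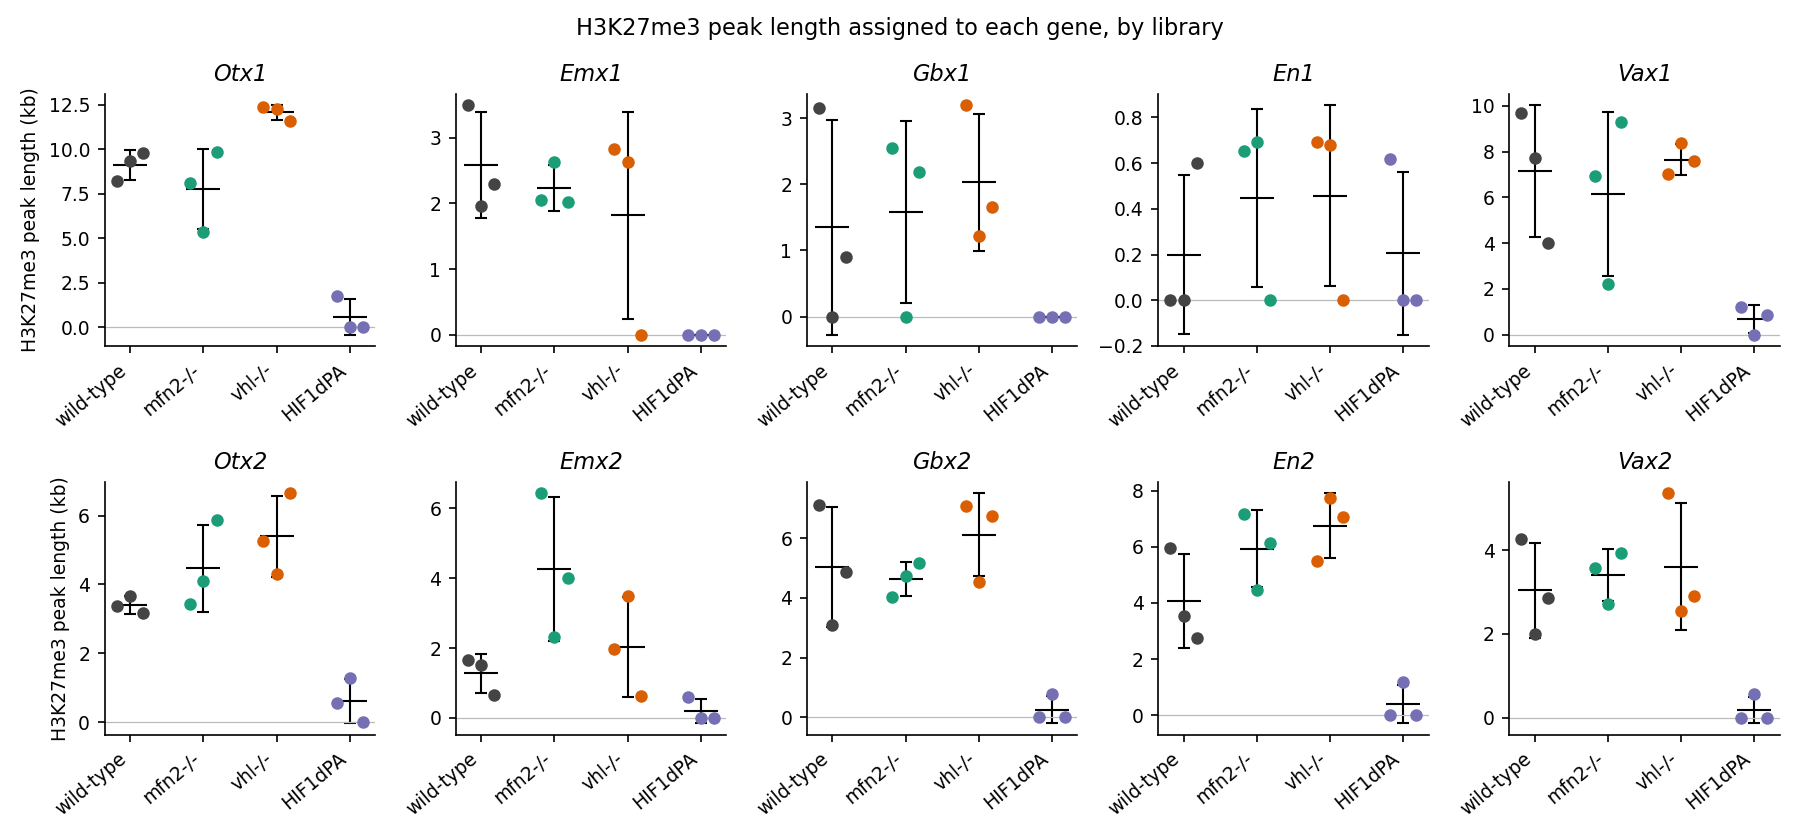
Points are the 12 H3K27me3 libraries, in replicate order within each genotype, and the y axis, whose range differs between panels, is the peak length assigned to the gene in kb. Horizontal bars are means and error bars are 1 SD (n = 3). HIF1dPA points lie below all wild-type points in each panel except Gbx1 and En1, where wild-type also holds a 0, and vhl-/- points lie above all wild-type points for Otx1 and Otx2.

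Across the 10 genes, 7 had an exact p under 0.05 before adjustment in the test of 4 genotypes, beside 33.2% of all genes tested, and Emx1, Gbx1 and En1 did not. Covered length was lower in every HIF1dPA list than in every wild-type list for 8 genes, all but Gbx1 and En1, beside 29% of all genes tested. As a share of each list's covered length this held for 1 gene, Emx1, beside 16.7%. Coverage was higher in every vhl-/- than in every wild-type list for Otx1 and Otx2, beside 6.23%, and on the share scale for none, beside 4.43%. It was higher in every mfn2-/- list for Emx2, beside 9.61%, and on the share scale for Emx2 and En2, beside 10.3%. None of the 10 was lower in every mfn2-/- list, beside 10.1%, or in every vhl-/- list, beside 2.42%, nor on the share scale, beside 8.36% and 3.3%, and none was higher in every HIF1dPA list, beside 0.125%, or on the share scale, beside 1%.

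By presence alone, no other complete separation from wild-type was found among the 10 genes. Over all genes tested, 3.84% were in 3 wild-type and 0 mfn2-/- lists and 8.44% the reverse, 1.09% in 3 wild-type and 0 vhl-/- lists and 1.55% the reverse, and 0.0418% in 3 HIF1dPA and 0 wild-type lists. Of the regions of the 10 genes, 0 separated mfn2-/- from wild-type, beside 2.98% lost and 1.93% gained over all regions, and 0 were gained in vhl-/-, beside 2.46%.

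Without the HIF1dPA libraries, 1 of the 10 genes had an exact p under 0.05 before adjustment, beside 403 (17.6%) of the 2293 genes tested there, and none of the 2293 passed after adjustment. On the share of each list, again 1 gene and 539 of all genes had an exact p under 0.05 before adjustment and none after it. In the comparison of 3 wild-type with 9 mutant libraries, an exact permutation test of mean covered length called none of the genes tested after adjustment and 218 before, 9.11% of all. None of the 10 genes was among the 218, and their exact p-values ran from 0.195 for Emx1 to 0.959 for Otx2. The peak lists of 2 libraries of a genotype shared little of the exact bases: the Jaccard index of the base pairs at the 10 genes (those shared over those in either list) averaged 0.217 between wild-type libraries, 0.248 between mfn2-/-, 0.286 between vhl-/- and 0 between HIF1dPA libraries, and 0.239 and 0.271 between wild-type and mfn2-/- or vhl-/-.

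The 13 HIF1dPA peaks at these genes mostly fell where wild-type myofibers had one. Of the 13, 11 (84.6%) overlapped a peak of a wild-type list, against 48.9% of all 1482 HIF1dPA peaks. The exceptions were the Otx2 peak of HIF1dPA 1, at score 50.2, and the En2 peak of HIF1dPA 2 over the 3′ UTR, where mfn2-/- and vhl-/- lists had peaks. The strongest were an Otx1 distal peak and a Vax1 distal peak, both in HIF1dPA 1, ranking 23 and 28 of 482. No base was under a peak in more than 1 HIF1dPA list at these genes. Of their 34 regions present in at least 3 lists, 4 were present in 3 wild-type and 0 HIF1dPA lists, at Otx1, Emx1, Vax1 and Vax2, beside 14.3% of all 2483 such regions.

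Merged regions of the 10 genes recurred between lists more often than those of all genes. Over the 12 lists their peaks formed 62 regions, of which 33.9% were in a single list, against 73.4% of all 15965 regions, and 14.5% were in 9 or more lists, against 2.36%. Overlapping peaks were merged in chains, into regions as wide as 9878 bp at Otx2. Lists could thus share a region without their own peaks overlapping. Whether the recurrence depends on the number of peaks per gene was not tested. By the authors' feature classes, 48.1% of the peaks of the 10 genes were promoter peaks, against 47.2% of all H3K27me3 peaks. Distal intergenic peaks made up 37.8%, against 32.0%, 3′ UTR peaks 8.29%, against 2.13%, and intron peaks 4.42%, against 15.9%. The 3′ UTR peaks were those of Otx1, En2 and Otx2, with 11, 13 and 6.

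No H3K9me3 peak was assigned to any of the 10 genes in any of the 12 H3K9me3 lists, and none lay within 5 kb of any of their H3K27me3 peaks.

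Other regulators of brain patterning were marked to a like extent. Of 23 such genes and antisense transcripts, 22 had an H3K27me3 peak in at least 1 list and 14 in 9 or more, beside 7 of the 10 homeobox genes and 18.6% of all genes tested. Each wild-type, mfn2-/- or vhl-/- list held 17 to 20 of them and each HIF1dPA list 5 or 6. Of the 20 that could be tested, 1 passed after adjustment in the 4-genotype test and 13 before, beside 1.84% and 33.2% of all genes tested. The 1 was Lhx2, a regulator of cortex and eye named after its value was seen, with 5520 ± 1396, 8255 ± 1100, 9499 ± 1490 and 172 ± 298 bp in wild-type, mfn2-/-, vhl-/- and HIF1dPA (exact p = 0.000390, adjusted 0.0444, a call lost without HIF1dPA at 0.0214, adjusted 0.219). Pax6, a regulator of eye and forebrain, was the only one with a peak in all 12 lists, with 9676 ± 3815, 9678 ± 3330, 12527 ± 3072 and 1007 ± 349 bp in the same order (exact p = 0.0162, adjusted 0.0734, and 0.568, adjusted 0.796, without HIF1dPA). Six6, Pax2 and Fezf2, of eye, midbrain-hindbrain boundary and forebrain, had a peak in 11 lists each. Of 11 Dlx, Msx and Gsx genes, 9 were marked in each long list and 1, 4 and 4 in the HIF1dPA lists, and of 39 Hox cluster genes, 14 to 18 and 3 to 4. Among 482 peaks per list, the other 9 lists held 7 to 11 of the 23 genes and HIF1dPA lists 5 to 6. For the Dlx, Msx and Gsx genes the counts were 3 to 8 and 1 to 4. For Hox genes they were 5 to 9 and 3 to 4. Of all genes with a peak in any list, these peaks reached 5.19 to 5.70% in the other 9 lists and 6.81 to 7.06% in HIF1dPA.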

How the data were processed

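Peak lists of 24 ChIP-seq libraries (4 genotypes, 2 marks, 3 replicates) were used. Per the labels' processing notes, the authors used BWA 0.7.5, MACS and deepTools 3.5.0 with build mm10, and MACS settings are not given in the sources used here. Each deposited list gives, per library, intervals, a score (50 or more for H3K27me3), a gene and a feature class (promoters reach 3 kb).

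The 10 genes, the other lists and the tests were chosen with earlier results of these data known. All 10 genes are named, and of 23 other genes at most 5, the first in a fixed order with a peak in the most lists. Assigned bp were summed per gene and library. Genes in at least 3 lists were tested by exact permutation over libraries: 4 genotypes (369600 arrangements, smallest p 6.49e-05) and, two-sided, wild-type against mutants (220 arrangements, smallest p 0.00455), with Benjamini-Hochberg adjustment, after a check on simulated data. Regions were merged from overlapping peaks of any gene. Alternatives were a score of at least 100, 482 peaks per list, a 5 kb window, promoter classes, joining within 1 kb, autosomes, presence, a wider gene filter, the replicate block and leaving out libraries. Added after seeing the data were leaving out HIF1dPA, the share of each list and counts of genes with no overlap. Scripts ran in Python 3.11.15 with pandas 2.3.3 and numpy 2.4.6, and plots in matplotlib 3.10.9.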

Additional observations from a re-analysis of the deposited data

Results flagged for a closer look

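For Otx1, every vhl-/- library had more H3K27me3 peak length than every wild-type library and every HIF1dPA library had less, and the vhl-/- mean exceeded the HIF1dPA mean by 11479 bp. The same opposite moves were seen for Otx2, with a gap of 4795 bp between the vhl-/- and HIF1dPA means. For Emx2, every mfn2-/- library was above and every HIF1dPA library below wild-type, and the gap between the means was 4050 bp. These differences between mutant genotypes were not tested. Both contrasts share the wild-type libraries, and the HIF1dPA lists hold 482 to 501 peaks against 3358 or more in the others. The vhl-/- lists covered 3.46 to 4.07 Mb, against 3.02 to 3.52 Mb in wild-type. As a share of each list, neither Otx1 nor Otx2 was higher in every vhl-/- list or lower in every HIF1dPA list. On that scale Emx2 was still higher in every mfn2-/- list but not lower in every HIF1dPA list.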

How the results depend on the processing

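The depth behind each list is unknown and the HIF1dPA lists are short, which limits every comparison with them. In sets of 482 peaks per list, the difference from wild-type in genes with a peak was 2.33 for mfn2-/- and -1.33 for HIF1dPA (0.333 and -5.67 in whole lists), the ratio of vhl-/- to wild-type covered length was 1.03 (1.29 in whole lists), and the median percentile differed from wild-type by 0.138 in mfn2-/-, -3.91 in vhl-/- and 1.73 in HIF1dPA (6.29, 0.978 and -19.4 in whole lists). The first was 1.33 at a score of at least 100, and the vhl-/- ratio was 1.57 with promoter classes only. The cause was not tested.

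The test of 4 genotypes called 44 genes and 1 of the 10. It called 1 gene and 0 of the 10 with 482 peaks per list, and 0 and 0 with genes in at least 1 list tested, with presence in place of length, without the HIF1dPA libraries and on the share of each list. The number of the 10 with an unadjusted p under 0.05 was 7, beside 33.2% of all genes tested. It became 1 without HIF1dPA, beside 17.6%, and 1 on the share, beside 22.5%. With 482 peaks it was 2, at a score of at least 100 it was 3 and with presence 0, with no share of all genes given. Without 1 library the test called 0 to 104 genes and 0 to 2 of the 10, with 5 to 7 unadjusted. Otx1 (adjusted p 0.0372 to 0.929 over its alternatives) lost its call without mfn2-/- 1 (0.0545), mfn2-/- 2 (0.0514), vhl-/- 2 (0.0559), HIF1dPA 1 or 2 (0.0765 each) or HIF1dPA 3 (0.0640). Its exact p before adjustment was 0.000325 without any 1 HIF1dPA library, as in the main test. It was 0.000649 without mfn2-/- 1, 0.000584 without mfn2-/- 2 and 0.00110 without vhl-/- 2. En2 passed without wild-type 1 (0.0449) and Otx2 without mfn2-/- 3 (0.0458). The count of all genes was 71 and 72 without wild-type 1 or 2, 23 without mfn2-/- 2, 9 without vhl-/- 2, 104 without vhl-/- 3, and 0 without mfn2-/- 1 or any HIF1dPA library. Wild-type against mutants called 0 genes under each alternative run.

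Genes lower in every HIF1dPA list numbered 8, beside 29% of all genes tested, and 1 on the share, beside 16.7%. They numbered 4 at a score of at least 100 and 1 with 482 peaks, with no share of all genes given. Genes higher in every vhl-/- list numbered 2, beside 6.23%, and 0 under each of these 3 settings, beside 4.43% on the share. Genes higher in every mfn2-/- list numbered 1, beside 9.61%, and 2 on the share, beside 10.3%. Genes present in all wild-type and no HIF1dPA list numbered 1, beside 16.3% of all genes tested. They numbered 4 at a score of at least 100 and 0 with 482 peaks, again with no share of all genes given. No HIF1dPA peak at the homeobox genes examined reached a score of 100, the highest being 92.4 in HIF1dPA 1. At that cutoff both counts of 4 therefore only give the genes with a peak in every wild-type list. They cannot test a difference in HIF1dPA, where absence was fixed by the cutoff. Leaving out 1 library gave 8 to 9, 2 to 4 (4 without wild-type 1 or vhl-/- 3), 1 to 2 (2 without any but wild-type 3) and 1 to 4 (4 without HIF1dPA 2, 3 without HIF1dPA 1, 2 without wild-type 2), and 0 to 1 lower in every mfn2-/- list (1 without mfn2-/- 3). Without 1 library the difference in genes with a peak was -0.167 to 0.833 for mfn2-/-, -0.167 to 1.00 for vhl-/- and -6.50 to -4.50 for HIF1dPA, the ratio of covered length 0.996 to 1.26, 1.20 to 1.48 and 0.0624 to 0.114, and the percentile difference 2.78 to 9.34, -2.53 to 4.04 and -29.7 to -13.9.

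Replicate numbers in the titles did not pair the libraries: the 18 correlations of deviations between same-numbered libraries ran from -0.0408 to 0.0676. With the replicate number as a block, the test of 4 genotypes called 0 genes and 0 of the 10 (Otx1 adjusted p 0.179). Before adjustment 5 of the 10 had a p under 0.05, with no share of all genes given.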
